A study of Mus musculus with 2 samples.

Results

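The midbrain of the mouse embryo was examined for 10 microRNA genes that are known from differentiated neurons, namely Mir137, Mir153, Mir128-1, Mir128-2, Mir138-1, Mir138-2, Mir218-1, Mir218-2, Mir132 and Mir212. They were chosen by name, through their Ensembl identifiers, and all 10 were found among the 1973 counted genes. The tissue was midbrain of healthy B6NCrl embryos at embryonic day 10.5, pooled over males and females, with 69 embryos in replicate 1 and 51 in replicate 2. RNA shorter than 30 nt was sequenced. These 2 biological replicates form the only group, so the data give levels and the difference between the pools, and no contrast of treatment, genotype or stage.

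A microRNA gene is transcribed into a hairpin precursor that is cut into a 5p and a 3p arm, and 1 of these arms usually becomes the guide that pairs with target messages through its seed, bases 2 to 8. Neuronal microRNAs accumulate as progenitors leave the cell cycle, and act on dendrites, synapses and excitability. miR-137 is known for limiting neuronal maturation and dendrite growth, and miR-153 for repressing genes of synaptic vesicle release. miR-128 restrains neuronal excitability, miR-138 limits the size of dendritic spines, and miR-218 is a hallmark of motor neurons. miR-132 and miR-212 are made from a common transcript that neuronal activity induces through CREB. At this stage the midbrain wall consists largely of dividing neuroepithelium, with the first neurons at its outer side. In bulk tissue, fewer neurons and less microRNA per neuron cannot be told apart.

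The replicates held 3297835 and 3682410 gene-assigned reads, 42.2% and 39.1% of the library. Reads that mapped to several places were tallied apart from the genes, 30.9% and 29.5% of the library, and are in no gene count. The members' sequences decide what this leaves out, and are therefore shown before the values. All 10 members were matched in the RefSeq microRNA table (GRCm38.p6, the build of mm10), which lists 17 different mature arms for them, each of 21 to 23 nt. The arms usually named as guides are printed 5′ to 3′ with the seed in capitals.
miR-153-3p: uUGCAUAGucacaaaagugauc
miR-137-3p: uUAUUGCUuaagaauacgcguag
miR-128-3p: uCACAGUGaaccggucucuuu
miR-138-5p: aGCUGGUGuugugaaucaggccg
miR-218-5p: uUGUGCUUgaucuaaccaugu
miR-132-3p: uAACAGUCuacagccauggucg
miR-212-3p: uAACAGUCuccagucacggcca

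Of these guides, miR-132-3p and miR-212-3p have the same seed and are identical at 17 of 22 aligned bases. No other mature microRNA in the table shares the seed of miR-153-3p, miR-137-3p, miR-128-3p or miR-138-5p, while the seed of miR-218-5p also occurs in miR-7002-3p. The arms miR-128-3p, miR-138-5p and miR-218-5p are each encoded, base for base, by 2 hairpins, and the other 14 arms by 1 of the 1005 hairpins in the table. The paired precursors of Mir128 are shown because they make this plain, with the longest run that both hold in capitals.
Mir128-1: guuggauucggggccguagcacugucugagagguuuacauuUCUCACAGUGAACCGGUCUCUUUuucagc
Mir128-2: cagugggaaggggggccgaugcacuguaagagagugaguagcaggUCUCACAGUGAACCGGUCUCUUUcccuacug

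The shared run was 23 bases in Mir128-1 and Mir128-2, 24 bases in Mir138-1 and Mir138-2 and 22 bases in Mir218-1 and Mir218-2. A read that lies wholly inside such a run matches both loci. Reads of the other arm can be placed, and so can reads that reach past the run. The arms that differ between the copies are these, again with the seed in capitals.
miR-128-1-5p: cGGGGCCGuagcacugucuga
miR-128-2-5p: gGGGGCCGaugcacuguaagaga
miR-138-1-3p: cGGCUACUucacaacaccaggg
miR-138-2-3p: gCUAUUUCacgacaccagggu
miR-218-1-3p: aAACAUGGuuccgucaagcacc
miR-218-2-3p: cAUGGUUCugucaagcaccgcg

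The 2 copies' arms were identical at 16 of 23 aligned bases for Mir128, 18 of 23 for Mir138 and 18 of 25 for Mir218. The 5p arms of the Mir128 copies still share a seed, whereas the 3p arms of the Mir138 copies and of the Mir218 copies do not. Mir153, Mir137, Mir132 and Mir212 shared no run longer than 11 bases with another hairpin of the table. The counts per gene do not separate the arms. The values of the 6 copy genes can therefore miss reads of the shared arm, and are uncertain as levels of miR-128, miR-138 or miR-218.

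Of all gene-assigned reads, 0.351% ± 0.126 (SD, n = 2) came from the 10 genes. The share was 0.440% in replicate 1 (95% Wilson interval 0.433 to 0.447%) and 0.262% in replicate 2 (0.257 to 0.267%), and the intervals cover counting error only, as the reads carry no molecular identifiers and need not be separate molecules. Mir153 and Mir137, each a single locus, made up 87.0% of the members' reads in replicate 1 and 83.5% in replicate 2. The other 8 members had means between 12.2 and 102 CPM (reads per 1000000 gene-assigned reads). For scale, a list of 9 microRNA genes taken to stand for neural progenitors summed to 77401 ± 3420 CPM, against 3510 ± 1256 CPM for the neuronal members (SD, n = 2). It was led by Mir130a (35213 CPM) and Mir92b (23299 CPM). Whether the listed genes are confined to progenitors was not tested, and the copy genes among the members can miss reads. The 2 sums are therefore no measure of cell proportions.

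**Figure D1:**
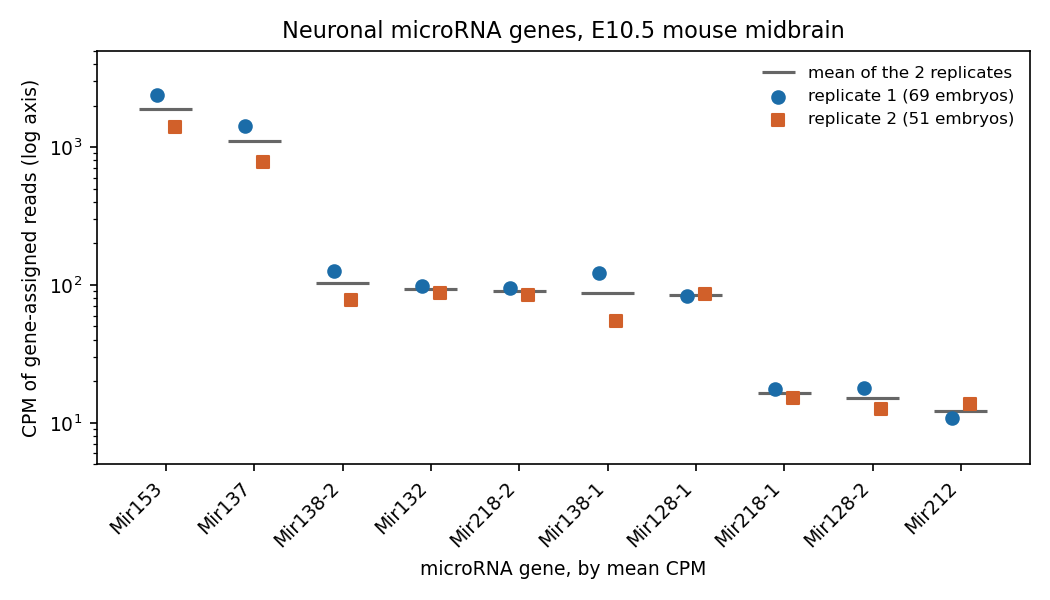
CPM of each of the 10 genes on a log axis in replicate 1 (circles) and replicate 2 (squares), with a line at the mean. Mir153 and Mir137 stand above the rest in both replicates, and Mir218-1, Mir128-2 and Mir212 lie lowest, under 20 CPM.

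Mir153 (ENSMUSG00000065538.1, chr12:117250817-117250885, mm10, plus strand) lies in an intron of Ptprn2, which codes for a phosphatase-like protein of secretory vesicles, and across from an intron of the antisense gene Gm5441. It had 7925 reads (2403 CPM) in replicate 1 and 5183 reads (1408 CPM) in replicate 2. Its mean of 1905 ± 704 CPM (SD, n = 2) placed it at rank 79 of all counted genes, the only member among the first 100. The genes next to it in level were Mir101b (1999 CPM) and Mir1193 (1941 CPM) above, and Mir15b (1898 CPM) and Mir381 (1840 CPM) below. These means lie closer to that of Mir153 than its own replicates lie to each other.

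Mir137 (ENSMUSG00000065569.1, chr3:118433857-118433929, plus strand) lies in an exon of the noncoding transcript Gm26871. It had 4697 reads (1424 CPM) in replicate 1 and 2881 reads (782 CPM) in replicate 2. The mean was 1103 ± 454 CPM (SD, n = 2), rank 103. Within each library Mir153 had more reads than Mir137, by 1.69 times in replicate 1 (95% exact counting interval 1.63 to 1.75) and 1.80 times in replicate 2 (1.72 to 1.88). Between the replicates, however, their ranges met, because the level of Mir137 in replicate 1 exceeded that of Mir153 in replicate 2.

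Mir138-2 (ENSMUSG00000065512.2, chr8:94324311-94324381, plus strand, an exon of the noncoding gene C78859) had 419 and 287 reads, 127 and 77.9 CPM. Its copy Mir138-1 (ENSMUSG00000065414.1, chr9:122682876-122682974, plus strand, an exon of the transcribed pseudogene Gm47135) had 400 and 201 reads, 121 and 54.6 CPM. Both copies were lower in replicate 2. Mir138-1 gave 48.8% of the pair's reads in replicate 1 (exact binomial interval 45.4 to 52.3%) and 41.2% in replicate 2 (36.8 to 45.7%). Neither copy dominated among the reads that could be placed, though the interval of replicate 2 lay below an even split. Mir138-2 had 1.05 and 1.43 times the assigned reads of Mir138-1. Divided by precursor length, with which reads are not expected to scale, the ratios were 1.46 and 1.99.

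Mir218-2 (ENSMUSG00000065583.1, chr11:35616816-35616925, plus strand) lies in an intron of Slit3 and had 313 reads in each replicate, 94.9 and 85.0 CPM. Mir218-1 (ENSMUSG00000065603.1, chr5:48223942-48224051, plus strand) lies in an intron of Slit2 and had 58 and 56 reads, 17.6 and 15.2 CPM. Slit2 and Slit3 code for secreted axon guidance ligands. The precursors are of equal length, and the Slit3 copy had 5.40 and 5.59 times the assigned reads of the Slit2 copy. The share of Mir218-1 in the pair hardly moved, 15.6% (exact interval 12.1 to 19.7%) and 15.2% (11.7 to 19.3%).

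Mir128-1 (ENSMUSG00000065520.1, chr1:128202361-128202430, plus strand, an intron of R3hdm1) had 276 and 315 reads, 83.7 and 85.5 CPM. Mir128-2 (ENSMUSG00000065441.1, chr9:112118636-112118711, minus strand) lies in an intron of Arpp21, a gene known from neurons, and had 59 and 46 reads, 17.9 and 12.5 CPM. The R3hdm1 copy thus led in both replicates, with 82.4% of the pair's reads (exact interval 77.9 to 86.3%) and 87.3% (83.4 to 90.5%). It had 4.68 and 6.85 times the assigned reads of the Arpp21 copy, and 5.08 and 7.43 times per base of precursor. For Mir128, Mir138 and Mir218 alike, the ratios between copies describe the reads that could be placed. The shared guides could be made by the copies in other proportions.

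Mir212 and Mir132 are neighbours, 203 bases apart on chromosome 11, and both lie in an intron of the noncoding gene 1700016P03Rik. Mir132 (ENSMUSG00000065537.1, chr11:75173682-75173747, plus strand) had 323 reads in each replicate, 97.9 and 87.7 CPM. Mir212 (ENSMUSG00000065590.1, chr11:75173388-75173478, plus strand) had 36 and 50 reads, 10.9 and 13.6 CPM, the lowest member by its mean and in replicate 1, while in replicate 2 Mir128-2 was lower. Mir132 made up 90.0% of the pair in replicate 1 (exact interval 86.4 to 92.9%) and 86.6% in replicate 2 (82.7 to 89.9%). Mir132 had 8.97 and 6.46 times the assigned reads of Mir212, and 12.4 and 8.91 times per base of precursor. None of the arms of these 2 genes occurs in another hairpin of the table, so that, unlike the copy pairs, they share no arm through which reads could be lost.

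In the order of mean CPM, Mir153 and Mir137 were followed by Mir138-2, Mir132, Mir218-2, Mir138-1 and Mir128-1, and then by Mir218-1, Mir128-2 and Mir212. The replicate ranges of neighbours in this order overlapped in 7 of 9 cases. The 2 steps without overlap were from Mir137 to Mir138-2, a ratio of means of 10.8, and from Mir128-1 to Mir218-1, a ratio of 5.16. The 5 genes between these steps had means of 84.6 to 102 CPM, and each overlapped its neighbours in the order. Both steps involve copy genes, whose counts can miss reads of the shared arm, so the size of the steps is uncertain. Against Mir132, which shares no arm with another hairpin, Mir137 had 14.5 times the reads in replicate 1 and 8.92 times in replicate 2. Of genes that are not neighbours, Mir132 (97.9 and 87.7 CPM) lay above Mir128-1 (83.7 and 85.5 CPM) without overlap. Reads are not expected to scale with precursor length, because each read covers 1 arm, but with CPM divided by precursor length 6 of the 10 kept their place. The step from Mir137 to Mir138-2 was then 10.5. Mir128-1 moved from place 7 to 5 and Mir218-2 went from 5 to 7, while Mir218-1 and Mir128-2 exchanged places.

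**Figure D2:**
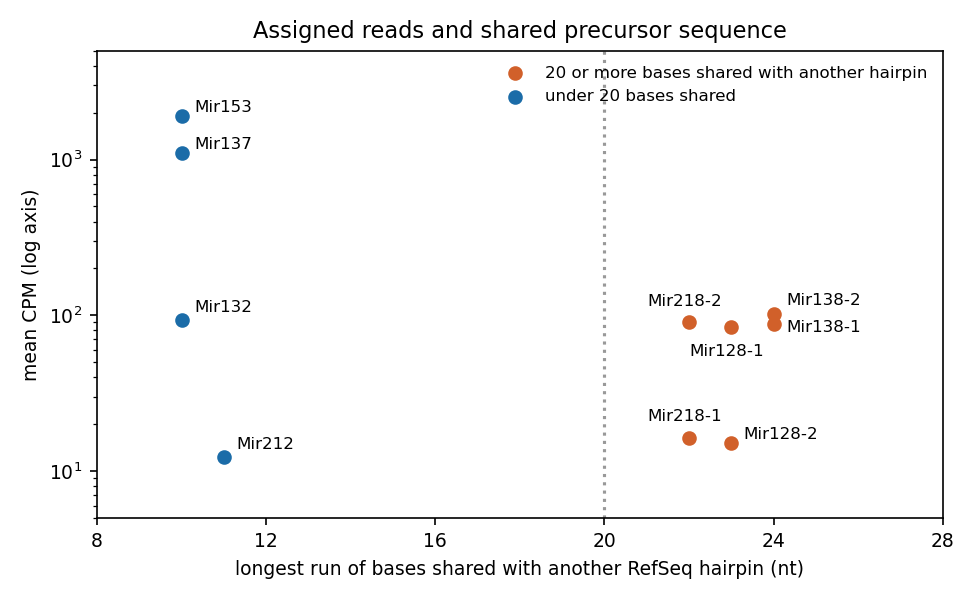
Mean CPM (log axis) of the 10 genes against the longest run of bases their precursor shares with another RefSeq hairpin, with a dotted line at 20 bases. The 6 genes with 22 to 24 shared bases lie between 15.2 and 102 CPM, and the 4 with 10 or 11 between 12.2 and 1905 CPM.

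All reads of the 10 genes lay in the second of the 3 count columns, taken as the gene's own strand, and none in the third. For Mir153, 0 of 7925 and 0 of 5183 reads allow an opposite-strand share of up to 0.0379% and 0.0579%. For Mir212, with few reads, the limit in replicate 1 is 8.33%. The antisense gene Gm5441 opposite Mir153 hence added no counted reads on that strand.

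Levels differed between the pools for Mir137, Mir153 and both Mir138 genes, which were lower in replicate 2, while the other 6 did not pass the test. The exact binomial test, run over all 485 genes with at least 10 reads in sum and adjusted by Benjamini-Hochberg, called 4 of the 10 members lower and 0 higher. It called 241 of all genes tested, 49.7%, with 26.6% lower and 23.1% higher. The members' count of called genes is thus not above the background. The test compares 2 libraries, not conditions, and treats reads as independent, so that the number of calls can be too high. The members' median log2 ratio of replicate 2 over replicate 1 was −0.36, against −0.02 over all genes tested. Of the 10 members, 8 were below 0, against 50.9% of all genes tested. Among these 8, only the 4 called had counting intervals that do not reach 0, and Mir132 and Mir218-2 had equal counts in the libraries.

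Mir138-1 differed most, 2.21-fold lower in replicate 2 (95% counting interval 1.86 to 2.64, adjusted p = 1.52e-20, exact binomial test). Mir137 was 1.81-fold lower (1.73 to 1.90), Mir153 1.70-fold (1.64 to 1.76) and Mir138-2 1.62-fold (1.39 to 1.89), all 3 past the threshold in the same test. The intervals of the Mir138 copies overlapped, and the difference between the copies was not itself tested.

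For the 6 other members the counting intervals bound what the depth could show. Mir128-1 had a ratio of 1.03 (interval 0.870 to 1.21, adjusted p = 0.870, exact binomial test). Mir132 and Mir218-2 had equal counts in the libraries and a ratio of 0.899, with intervals of 0.768 to 1.05 and 0.766 to 1.05. A difference as large as that of Mir137 lies outside these 3 intervals. Mir218-1 (ratio 0.868, interval 0.590 to 1.27), Mir128-2 (0.702, 0.466 to 1.05) and Mir212 (1.24, 0.797 to 1.97) had at most 59 reads in a library. Of these last 3, only the interval of Mir128-2 takes in the ratio of 0.551 found for Mir137.

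**Figure D3:**
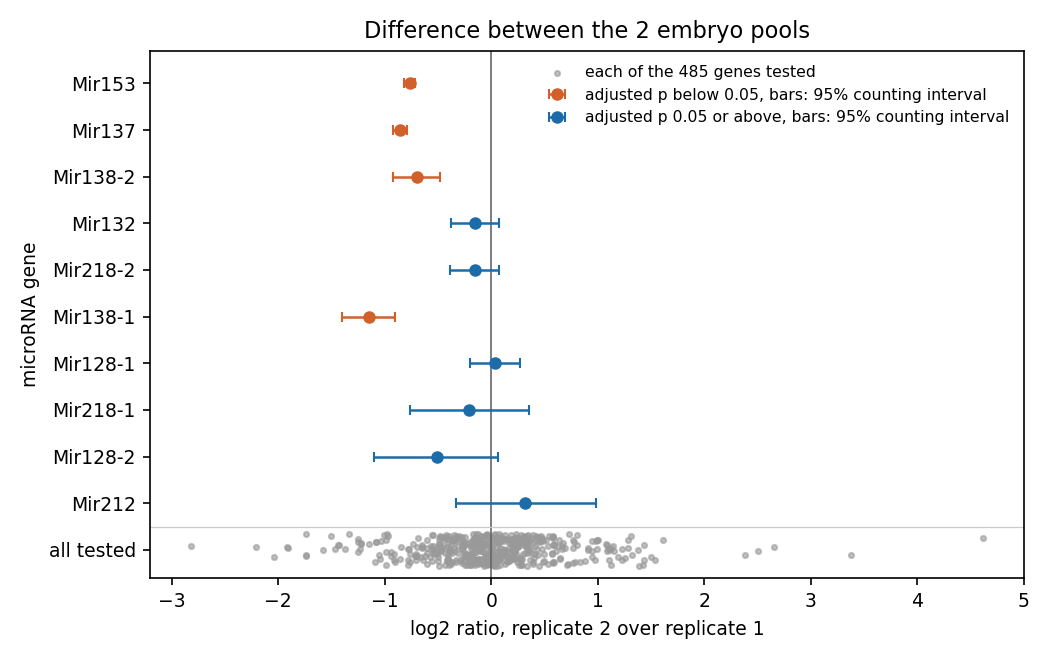
Log2 ratio of replicate 2 over replicate 1 for each of the 10 genes, with 95% counting intervals, and at the bottom for each of the 485 genes tested. Mir153, Mir137, Mir138-2 and Mir138-1 lie below 0 with intervals that do not reach it, and the intervals of the other 6 include 0.

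Ratios within a library do not depend on how libraries are scaled. Mir137 had 17.0 times the reads of Mir128-1 in replicate 1 (95% exact counting interval 15.1 to 19.3) and 9.15 times in replicate 2 (8.14 to 10.3). Mir153 had 28.7 times (25.5 to 32.5) and 16.5 times (14.7 to 18.5). The Mir138 pair had 2.44 times the reads of the Mir128 pair (2.15 to 2.78) and 1.35 times (1.18 to 1.55). The members' proportions to each other thus differed between the pools, beyond the counting error of independent reads. Mir137, Mir153 and Mir138 were on the lower side in replicate 2. These ratios come from the same counts as the binomial test and are no separate support for it.

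Among genes of mean CPM 100 or more, those whose ratio between the pools was nearest to that of Mir153 (log2 ratio −0.77) were Mir301 (−0.71), Mir138-2 (−0.70) and Mir98 (−0.69). This likeness rests on 1 ratio from 2 libraries.

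A list of 20 other microRNA genes of neurons and mature brain was mostly lower in replicate 2. The list was chosen with earlier results of these data known, so its direction is no separate support for that of the members. Of 19 counted (Mir9-1 is not among the counted genes), 17 were tested. Of these, 12 were called lower in replicate 2, 2 higher and 3 neither way, with a median log2 ratio of −0.44. Over all 485 genes tested, 26.6% were called lower and 23.1% higher, with a median of −0.02. Mir9-3, a copy of the neurogenic miR-9, had 452 and 246 reads (−1.03). Mir7b had 704 and 336 reads (−1.22) and Mir448, which lies in the serotonin receptor gene Htr2c, 49 and 20 reads (−1.43). These genes, chosen after their values were seen, were among the larger differences of the list. Mir7-2 (−0.49), Mir7-1 (−0.44) and Mir134 (−0.07) were called lower with smaller ones. The genes higher in replicate 2 were the most abundant of the list, Mir219a-2 (0.25) and Mir219a-1 (0.36), so that the summed level of the list was 9413 CPM in replicate 1 and 10274 CPM in replicate 2. The copies of Mir124, the most specific microRNA of neurons, had few assigned reads and did not move together. Mir124a-2 had 56 and 36 reads and was called lower, while Mir124a-3 had 16 and 34 reads (log2 ratio 0.91, adjusted p = 0.066 in the exact binomial test) and was not called. Mir124a-1, with 7 and 2 reads, was not tested. Shared runs were examined for the members only. Reads of the Mir124, Mir9, Mir7 and Mir219a copies that map to several places are in no gene count. These counts are thus uncertain as levels of the mature microRNAs.

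Markers of other cells and regions also differed between the pools, but so did 49.7% of all 485 genes tested (26.6% lower, 23.1% higher). Among genes with a mean CPM of at least 10, 66.3% were called. At high counts small differences are called too, such as that of Mir130a (log2 ratio −0.06). The counts of called genes below are to be read beside these shares. The progenitor list was called lower in 7 of 9 genes and higher in 2, and summed to 79820 and 74983 CPM. Its median log2 ratio was −0.54, below the −0.36 of the members and the −0.44 of the list of neurons and mature brain. Lower values in replicate 2 were thus not particular to neuronal genes. The list of genes in the Hox clusters, known from tissue behind the midbrain, was called higher in 4 of 5 tested and summed to 162 CPM in replicate 1 and 395 CPM in replicate 2, with Mir196a-1 at 0 in both. The pluripotency list of Mir302 genes and Mir367, called higher in 4 of 5, summed to 14463 and 33420 CPM. Mesenchyme genes, called lower in 6 of 6, summed to 16222 and 13241 CPM, and the endothelial Mir126a, called higher, had 26450 and 30780 CPM. Epithelium was called higher in 5 of 7 genes and lower in 2, and summed to 3397 and 4092 CPM. Of the erythroid genes 2 of 3 were called higher, but their sum was 404 and 374 CPM, because the most abundant, Mir451a, was called lower (354 and 295 CPM). The 2 leukocyte genes counted were not called and summed to 588 and 581 CPM. Muscle genes, of which 0 of 3 tested were called, summed to 49.7 and 55.7 CPM, and 4 of the 7 counted, among them Mir1a-1 and Mir133a-1, were at 0. The part of these markers in the members' differences was not tested, and with 1 library per pool, pool and library preparation cannot be told apart.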

How the data were processed

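Raw counts of reads per microRNA gene were deposited, 1 file per library. The authors aligned to mm10 and used GENCODE M4 for counting, per the deposited file descriptions. The aligner, the trimming and the counting settings are, however, not given in the sources used here. The 3 count columns have no names, and the first, used here, equals the sum of the others in every gene row. The 4 rows that name no gene held 57.8% and 60.9% of the reads and stayed out of the totals. Gene identifiers were matched without version to GENCODE M21 on GRCm38 (1894 of 1973), which gave the coordinates (1-based) and host genes.

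CPM was computed over gene-assigned reads. Log2 ratios used 0.5 added reads and TMM library sizes (edgeR 4.0.16). The two-sided exact binomial test per gene was conditional on these sizes, over all genes with at least 10 reads in sum, with Benjamini-Hochberg adjustment at 0.05. It was tested on simulated data with counting error only, which says nothing of variation between pools. The 10 members all passed this filter. Ratio intervals are exact (Clopper-Pearson), at 95%. Limits for 0 reads are 3 counts of the total. Sequence runs were compared across RefSeq hairpins on both strands.

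The members and lists were chosen with earlier results of these data known. Genes named were the members, the 2 next above and below the most abundant member, the 3 nearest to it in log2 ratio, and up to 2 of the highest of each list, with the lists otherwise given as sums and counts. Mir9-3, Mir7b, Mir7-1, Mir7-2, Mir134, Mir448, Mir124a-1, Mir124a-2, Mir124a-3, Mir196a-1, Mir1a-1 and Mir133a-1 were chosen after their values were seen. Alternatives were DESeq2 size factors (DESeq2 1.42.0), total counts, the second count column, other filters and denominators, thinning, and leaving out the most abundant gene or a replicate. Python 3.11.15, scipy 1.17.1, pandas 2.3.3, numpy 2.4.6, matplotlib 3.10.9 and R 4.3.3 were used.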

Additional observations from a re-analysis of the deposited data

How the results depend on the processing

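Mir137, Mir153, Mir138-1 and Mir138-2 were the 4 members called lower, and no other member was called, under every scaling, count column, filter and thinning tried (DESeq2 size factors, total counts, the second count column, without Mir335, no filter, a mean CPM of at least 10, replicate 2 thinned). No log2 ratio of a member changed sign under the scalings, the second count column or the removal of Mir335. The number of genes called ranged from 224 to 240, but the share called depends on the filter, 29.6% of 769 genes with none and 66.3% of 338 genes at a mean CPM of at least 10. DESeq2 size factors shifted all ratios by 0.03 (log2) and called 120 higher and 115 lower. With all reads of the library as the denominator the members summed to 1441 CPM, a share of 0.144%, because reads of no gene then count. The 4 members without a shared run of 20 bases held 0.311% of the gene-assigned reads. Without replicate 1 the members' share was 0.262%, and without replicate 2 it was 0.440%. The difference between the pools cannot be computed without either replicate. No paired analysis was possible because there is only 1 group. Depth limits the members under 20 CPM, Mir218-1, Mir128-2 and Mir212, whose counting intervals are the widest.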
